A study of Homo sapiens with 8 samples.

Results

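The data described here were the siControl arrays at 24 h, 3 of the 8 arrays of a study of the small GTPase RND3 (also called RhoE) in U87 cells, chosen by their sample titles. U87 is an established human glioblastoma line, derived from a malignant astrocytic tumour of the brain. The cells of these 3 arrays had been transfected with a non-silencing control siRNA by lipid-based reverse transfection and were collected 24 h later, so they were transfected control cells and not untouched cells. The other arrays of the series (3 with RND3 knockdown at 24 h, and 1 control and 1 knockdown array at 48 h) entered only the scaling between arrays. Total RNA from whole cultures was labelled with Cy3 and hybridised to 1 array per sample, and the labels do not say whether the 3 replicates came from separate cultures. Standard deviations therefore describe the spread between these 3 arrays, which may be technical, and no contrast between groups was made.

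Glioblastoma is the most malignant form of astrocytic glioma. Its transcriptomes are commonly sorted into proneural, classical and mesenchymal subtypes, of which the mesenchymal subtype is known for CD44, CHI3L1, MET, adhesion genes and inflammatory signalling. Glioma lines grown in serum are known to lose parts of the astrocytic and stem cell programme of the parent tumour. The small GTPases of the RND3 family are molecular switches of the actin cytoskeleton that respond to exchange factors (RhoGEFs) and GTPase-activating proteins (RhoGAPs), while the Rnd members lack intrinsic GTPase activity.

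Signal is given as the log2 of the processed spot intensity, the scanner brightness after background subtraction, scaled by quantile normalisation. The arrays carried 42405 probes, of which 25422 could be named, and these represented 19483 genes. A gene was called detected when at least 1 of its probes was well above background, by the flag of the scanner software, on all 3 arrays. By this rule 14590 genes (74.9%) were detected, 1021 (5.24%) passed the flag on some arrays only, and 3872 (19.9%) had no probe that passed it on any array. The last are called at background below. A weaker flag of the software, for signal above background, left 1288 genes without a passing probe, so at background does not mean absent. The value of a gene is that of its brightest probe. Brightness depends on the probe as well as on the transcript, so the order of genes below is an order of probe signal and not of transcript amount. The percentile of a gene is its place by mean signal among the 19483 genes.

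The 3 arrays were close to each other. The share of probes that passed the flag was 68.5% to 70.7% per array, no spot was saturated, and pairs of arrays correlated across all probes at Pearson's r between 0.989 and 0.991. Over the 14588 genes whose brightest probe was well above background on all 3 arrays, the median SD was 0.0763 on the log2 scale and 89.0% had an SD below 0.2. The spread narrowed with signal. The median SD was 0.218 for the 217 genes with a log2 signal below 4, 0.0977 for the 3108 genes between 6 and 8, and 0.0426 for the 163 genes above 16.

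The flag was also passed by some olfactory receptors. These are odorant receptors of the nasal epithelium and offer a yardstick for signal from genes with no known role in glial cells. Of 354 olfactory receptor genes, 75 (21.2%) were detected, although their median log2 signal was 1.98 against 7.53 for all genes. The most intense, OR2H1, had log2 values of 12.53, 12.53 and 12.47, and 1 of its 2 probes was detected. Whether such signal came from receptor transcripts or from other sequences was not tested. The 95th percentile of the family lay at 6.87. Counts below are therefore also given for genes that were detected and had a mean log2 signal above this level, a threshold chosen after the values were seen. It was passed by 10771 genes (55.3%), so 26.2% of the detected genes lay at or below it.

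**Figure D1:**
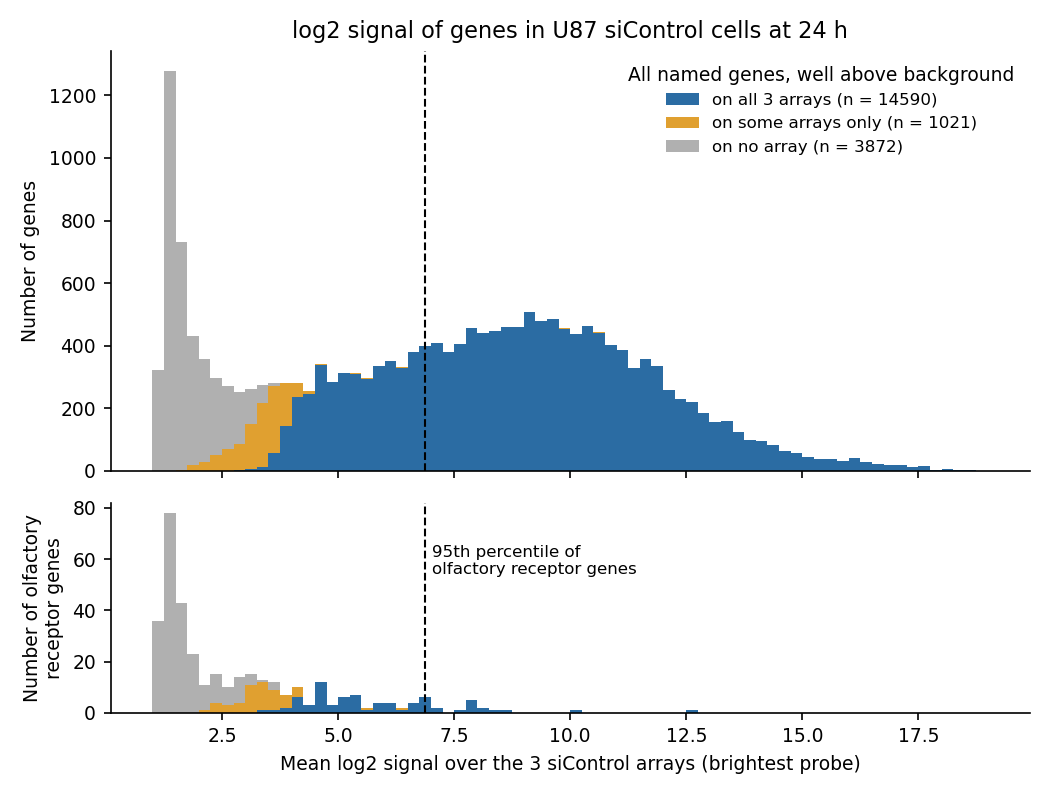
Number of genes by mean log2 signal of the brightest probe over the 3 siControl arrays, for all 19483 named genes (top) and 354 olfactory receptor genes (bottom), coloured by whether a probe was well above background on all 3, some or none of the arrays. The dashed line marks the 95th percentile of olfactory receptor genes at 6.87, and 3819 detected genes lie at or to the left of it.

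Detection differed with the kind of transcript. Of 24390 probes for coding RefSeq transcripts, 75.1% were well above background on all 3 arrays, against 52.4% of 2389 probes for non-coding RefSeq transcripts and 59.7% of 8263 probes for lincRNA loci. Above the olfactory receptor level the shares were 53.6%, 26.1% and 23.8%.

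The strongest signals included ribosomal, ferritin and metallothionein genes. Among the 20 genes with the highest mean signal were the cytosolic ribosomal protein genes RPS2 (18.30 ± 0.02, SD, n = 3), RPL41, RPL13, RPS27 and RPS21 (17.64 ± 0.06). RNA28SN5, a 28S ribosomal RNA gene, had the value 18.59 on every array, and the small non-coding RNA SNAR-A3 was the brightest gene on all 3 arrays, so that quantile normalisation gave it the same value of 18.71 each time. FTH1 (17.94 ± 0.04), the ferritin heavy chain, MT2A, MT1A, the pseudogene MT1L and LGALS1 (17.61 ± 0.03), which encodes galectin-1, were also in this group. These include transcripts of protein synthesis, iron storage and metal binding.

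Another 6 of the 20 were genes of no shared kind. C5orf63 had a probe at 18.36 ± 0.01 (SD, n = 3) and 2 others at 5.50 and 5.54. For ZNF865 the probes lay at 18.14 and 4.76, and for GPR155 at 17.86, 6.04 and 5.76. ADAMTS7 had 4 probes, at 17.72, 9.98, 5.12 and 3.19. SLC66A1 (18.12 ± 0.04) and FAM74A4 (17.76 ± 0.03) had no second probe. For C5orf63, ZNF865, GPR155 and ADAMTS7 the extreme signal belonged to a probe and was not shared by the others of the gene. Among the 4925 genes with 2 or more probes, 908 (18.4%) had probes that differed in detection, and in 1563 (31.7%) the highest and lowest probe differed by more than 3 on the log2 scale.

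Families of the cell's basic machinery were detected nearly in full. All 83 cytosolic ribosomal protein genes were detected, with a median log2 signal of 16.51, as were all 73 mitochondrial ribosomal protein genes (median percentile 91.0), all 36 complex I subunits of the respiratory chain (96.5), all 8 CCT chaperonin subunits (96.7) and all 6 MCM subunits of the replicative helicase (92.6). Every gene of these 5 families also lay above the olfactory receptor level. Among the MCM genes, MCM7 had a log2 signal of 14.90 ± 0.03 (SD, n = 3), MCM3 of 13.47 ± 0.03, MCM5 of 12.72 ± 0.09, MCM2 of 12.56 ± 0.06, MCM6 of 12.23 ± 0.05 and MCM4 of 11.17 ± 0.12. Members with tissue-restricted relatives marked the low end of these families. RPL3L, the striated muscle relative of RPL3, had a signal of 6.93 ± 0.12. Of 39 proteasome subunits 37 were detected, and the exceptions were PSMB11 (3.49 ± 0.56), the thymus-specific subunit, and PSMA8 (1.56 ± 0.06), the testis-specific one. SRSF12, with values of 1.45, 1.56 and 1.48, was the 1 of 12 SR splicing factors at background. All 15 common control genes were detected, with GAPDH at 17.21 ± 0.02 and TBP lowest at 8.32 ± 0.04.

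Families restricted to other tissues lay at the other end of the range. Of all genes 74.9% were detected and 55.3% lay above the olfactory receptor level. Besides the olfactory receptors, 8 of 28 taste receptors, 12 of 30 beta-defensins and 1 of 9 interferon alpha genes were detected, and above the olfactory receptor level there remained 1 taste receptor (TAS2R31, 6.97 ± 0.07), 1 beta-defensin (DEFB124, 7.14 ± 0.07) and no interferon alpha gene. Channels and receptors of excitable cells were also mostly dim. Of 35 voltage-gated potassium channel genes 5 were above that level (14.3%), of 14 sodium channel genes 1, of 19 GABA-A receptor subunits 2, of 18 ionotropic glutamate receptor subunits 2 and of 17 serotonin receptors 1. KCNH3 stood out, with values of 13.04, 13.04 and 12.92. GABRB1 had a log2 signal of 9.53 ± 0.03. Keratin-associated proteins of the hair shaft were detected for 49 of 83 genes, and 20 passed the olfactory receptor level (24.1%), the highest being KRTAP3-3 (15.30 ± 0.14), where 1 of 2 probes was detected.

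**Figure D2:**
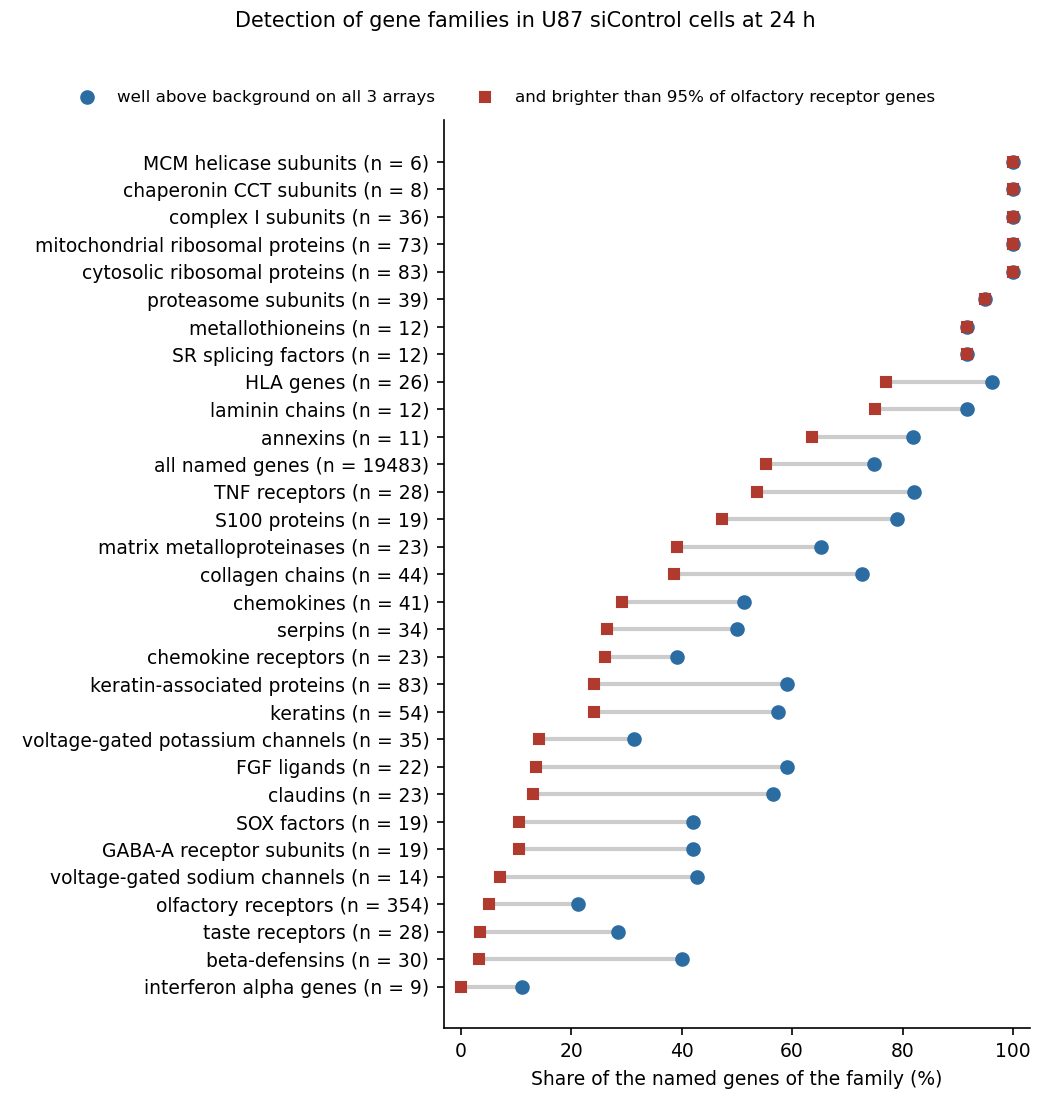
Share of the named genes of 30 gene families, and of all named genes, that were well above background on all 3 siControl arrays (circles) and that in addition were brighter than 95% of olfactory receptor genes (squares), in percent, with the number of genes in brackets. The families of ribosomes, complex I, CCT and MCM subunits sit at 100% by both counts, all genes at 74.9% and 55.3%, and the interferon alpha genes at 11.1% and 0%.

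Metallothioneins, cysteine-rich proteins that bind zinc and copper, were among the brightest families. Of 12 genes 11 were detected, all 11 above the olfactory receptor level, with a median percentile of 99.7. MT2A gave log2 values of 18.18, 18.14 and 18.14, MT1X of 16.96, 16.96 and 16.93, and MT1H of 17.19, 17.21 and 17.16. MT3, known as the brain metallothionein, had values of 11.96, 11.89 and 11.69, and MT1G of 7.28, 7.28 and 7.27. MT4, the form of stratified epithelia, was at background, with 2.38, 1.17 and 1.89. The MT1 genes are close paralogs whose probes may share signal, which was not tested, so their separate values are uncertain.

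Metallothionein genes respond to zinc through the factor MTF1, which binds metal response elements with the core TGCACNC or TGCGCNC. The promoters of the family are shown because the group spans both ends of the signal range. The reference table (RefSeq, GRCh38.p14) held promoters for 5 of the 12 genes, all on the plus strand of chromosome 16. Those of MT2A (chr16:56608334-56608583), MT1X (chr16:56682220-56682469) and MT4 (chr16:56564823-56565072) are printed below, as the 250 bases before the annotated start, with matches to either core on either strand in capitals.

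MT2A: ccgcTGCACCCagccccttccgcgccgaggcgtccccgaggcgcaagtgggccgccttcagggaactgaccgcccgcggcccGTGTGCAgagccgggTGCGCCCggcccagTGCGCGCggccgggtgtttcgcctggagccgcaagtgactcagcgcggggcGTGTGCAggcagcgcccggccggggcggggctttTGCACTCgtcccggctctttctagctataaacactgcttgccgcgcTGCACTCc

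MT1X: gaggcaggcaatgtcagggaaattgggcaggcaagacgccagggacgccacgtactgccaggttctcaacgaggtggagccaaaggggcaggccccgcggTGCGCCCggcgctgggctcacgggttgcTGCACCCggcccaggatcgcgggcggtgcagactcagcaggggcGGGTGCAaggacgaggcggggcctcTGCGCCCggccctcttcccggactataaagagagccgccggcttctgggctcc

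MT4: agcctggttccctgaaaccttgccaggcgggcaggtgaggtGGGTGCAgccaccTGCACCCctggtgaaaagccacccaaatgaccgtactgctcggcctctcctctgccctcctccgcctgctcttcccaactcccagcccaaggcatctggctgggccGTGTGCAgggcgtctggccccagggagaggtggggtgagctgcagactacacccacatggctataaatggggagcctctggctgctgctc

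The MT2A promoter held 7 matches, 5 on the plus strand and 2 on the minus strand, and that of MT1X held 4. The dim MT4 had 3, as did MT1B (17.31 ± 0.03), and MT1H had 8. No matches overlapped in these sequences. Among all 27305 RefSeq promoters of the same length, 24.7% had at least 1 match and 1.56% had at least 3, so a high count of these letters was shared by all 5 metallothionein promoters, whether the gene was bright or at background. A match is a stretch of letters and not a measured binding site.

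Marker lists of cell types and glioblastoma subtypes were described next. They were chosen with earlier results of these data known, and no other cell line was measured. Their shares describe the lists and do not assign a subtype. Mesenchymal glioblastoma markers were detected for 20 of 21 genes (95.2%), all 20 above the olfactory receptor level, which 55.3% of all genes passed, with a median log2 signal of 13.48 and a median percentile of 95.7. CD44, the hyaluronan receptor, had log2 values of 15.80, 15.79 and 15.76. VIM, the intermediate filament vimentin, had values of 17.43, 17.32 and 17.39, and CHI3L1, a secreted glycoprotein also called YKL-40, of 13.57, 13.49 and 13.63. TGFBI (16.75 ± 0.07, SD, n = 3), S100A6 (17.53 ± 0.04), ANXA2 (16.26 ± 0.04) and the transcription factor CEBPB (14.12, 14.12 and 14.13) belonged to the same upper range. The transcription factors RUNX1 (11.19 ± 0.01), FOSL2 (8.97 ± 0.16) and STAT3 (7.56 ± 0.14) had lower probe signals, STAT3 lying at percentile 50.3. MERTK, a receptor tyrosine kinase, was the 1 marker at background, with 1.24, 2.26 and 1.24.

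Proneural markers gave a different picture, with 7 of 12 detected (58.3%) and 2 above the olfactory receptor level (16.7%), at a median percentile of 28.0. Those 2 were the transcription factor TCF4 (11.41 ± 0.04) and the adhesion molecule NCAM1 (8.77 ± 0.04). PDGFRA, the platelet-derived growth factor receptor of oligodendrocyte precursors, had values of 5.52, 5.45 and 5.62, and OLIG2 of 4.96, 4.88 and 5.26. SOX2 (1.15 on each array), DLL3 (1.29 ± 0.20), NKX2-2 and BCAN were at background. Classical markers were detected for 8 of 9 genes, 5 above the olfactory receptor level (55.6%), among them NOTCH3 (10.44 ± 0.06), NES (9.59 ± 0.02) and EGFR (8.56 ± 0.03), while FGFR3 was at background. Of 11 neural stem cell markers 6 passed that level (54.5%), led by ID1 (13.97 ± 0.06), and PROM1, which encodes CD133, and SOX1 were at background. Both of these shares lay near the 55.3% of all genes.

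Of 12 astrocyte markers 8 were detected (66.7%, against 74.9% of all genes). GFAP, the defining intermediate filament of astrocytes, was at background, with 2.36, 2.06 and 1.71 on its brighter probe, and so was AQP4, the water channel of astrocyte endfeet (3.25 ± 0.40). By the weaker flag all 12 astrocyte markers were detected, GFAP and AQP4 included. The connexin gene GJA1 (11.43 ± 0.10), the glutamate transporter gene SLC1A3 (10.37 ± 0.04), ALDOC, NDRG2 and GLUL were detected above the olfactory receptor level. These made 5 of 12 (41.7%, against 55.3% of all genes). The astrocytic genes that were bright thus included those of a connexin, a transporter and metabolic enzymes, and GFAP was not among them. In RNA from a whole culture, fewer cells of a type and less RNA per cell cannot be told apart.

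Markers of other cell types lay mostly low in signal, but less so by the flag. Median percentiles were 24.7 for neuron, 31.3 for oligodendrocyte, 28.2 for leukocyte and microglia, 33.8 for endothelial and 29.0 for epithelial markers. In that order, 50%, 66.7%, 63.6%, 70% and 70% were detected, against 74.9% of all genes. The olfactory receptor level used next, chosen after the values were seen, was passed by 55.3% of all genes. Of 12 neuron markers 3 were above the olfactory receptor level, TUBB3 (13.89 ± 0.08), SNAP25 (10.85 ± 0.04) and MAP2 (10.20 ± 0.03), and RBFOX3 and STMN2 were among those at background. Of 12 oligodendrocyte markers 4 passed, CNP (14.15 ± 0.04), MOG (1 of 2 probes), UGT8 and MAG, while MBP, a gene of myelin basic protein, was detected on 1 of 3 probes, at 4.79 ± 0.31. Among 11 leukocyte and microglia markers, CSF1R, the receptor of macrophage colony-stimulating factor, was bright, with 11.18, 11.21 and 11.28, and TYROBP reached 7.12 ± 0.15. PTPRC, which encodes the pan-leukocyte protein CD45, had 2 of 4 probes detected, the brighter at 5.41 ± 0.52, and CX3CR1, P2RY12 and C1QA were at background. Endothelial markers passed the olfactory receptor level for 2 of 10 genes (EGFL7 and CDH5) and epithelial markers for 1 of 10 (CLDN4), with CDH1, which encodes E-cadherin, at background (1.33 ± 0.02). Pericyte and fibroblast markers lay near the shares of all genes, with 10 of 12 detected (83.3% against 74.9%) and 7 above that level (58.3% against 55.3%), including COL1A2 (12.48 ± 0.05), FAP (12.14 ± 0.01) and COL1A1. COL3A1 passed the flag on some arrays only, with 1.35, 1.36 and 5.23, and POSTN was at background.

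**Figure D3:**
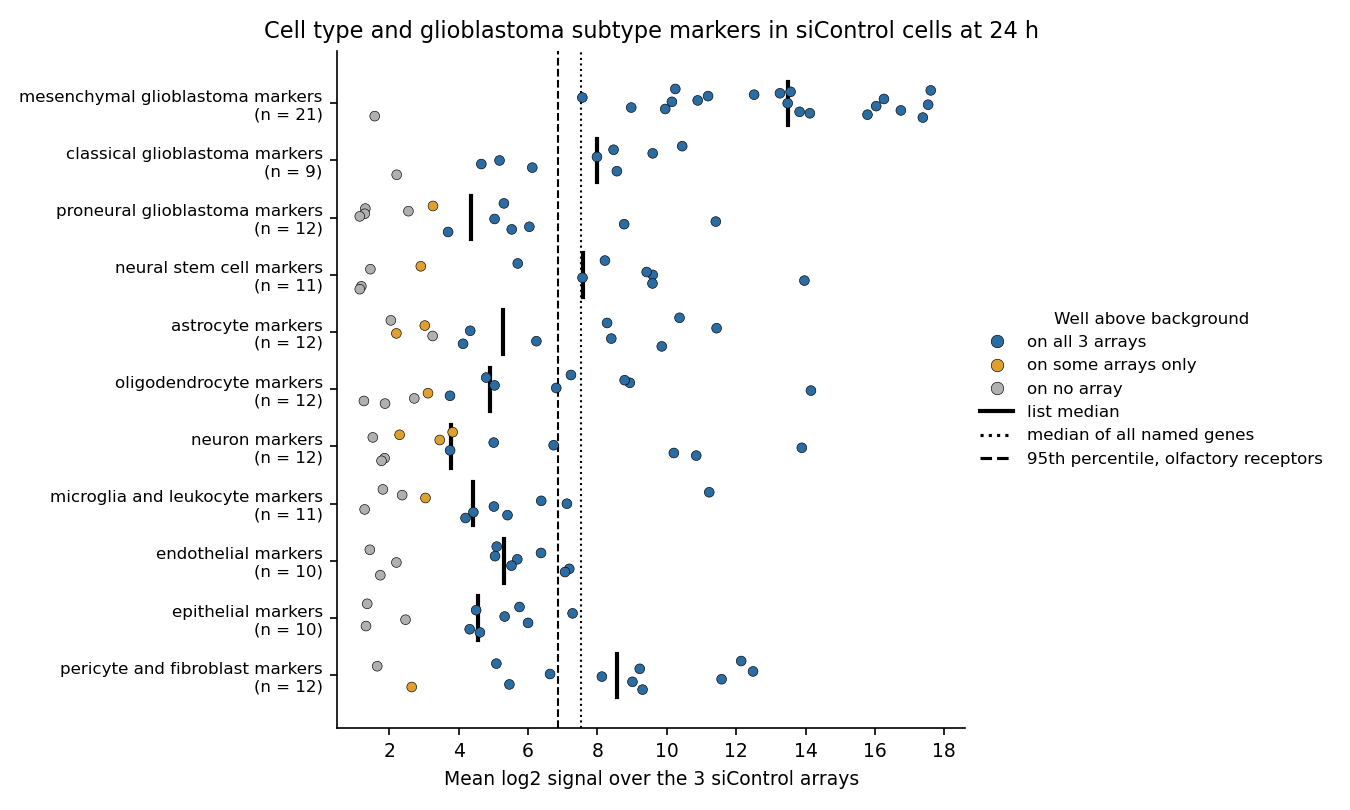
Mean log2 signal over the 3 siControl arrays of each marker gene, by list, with 1 point per gene coloured by detection, the list median as a bar, the median of all named genes (7.53) dotted and the olfactory receptor level (6.87) dashed. The mesenchymal list has its median at 13.48, far to the right of the medians of the proneural (4.36), astrocyte (5.29) and neuron (3.79) lists.

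Intermediate filaments are a family in which cell types differ gene by gene. Of 17 genes 14 were detected (82.4%, against 74.9% of all genes). Above the olfactory receptor level lay 9 (52.9%, against 55.3%), led by VIM and the lamin gene LMNA. GFAP, SYNM and the neurofilament gene NEFH were at background. The simple epithelial keratins KRT7 (13.44 ± 0.06) and KRT18 were detected, and KRT8 was detected on 1 of its 2 probes (9.90 ± 0.01), the other lying at 1.41.

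Genes altered in glioma were taken one by one. Of 22 driver genes 18 were detected (81.8%, against 74.9% of all genes) and 15 lay above the olfactory receptor level (68.2%, against 55.3%). By the weaker flag 21 were detected. CDK4, a kinase of the G1 phase, had log2 values of 13.71, 13.64 and 13.72, and MET, the hepatocyte growth factor receptor, of 13.31, 13.21 and 13.26. The metabolic enzymes IDH1 (11.59 ± 0.08, SD, n = 3) and IDH2 (10.40 ± 0.05), the G1 regulators RB1 (10.51 ± 0.01) and CDK6 (10.01 ± 0.03), and the chromatin remodeller ATRX (9.51 ± 0.03) followed. The ubiquitin ligase gene MDM2 (8.58 ± 0.23), its relative MDM4 (7.76 ± 0.13), the PI3-kinase genes PIK3R1 (8.29 ± 0.09) and PIK3CA (7.47 ± 0.05), EGFR, and the telomerase gene TERT (6.95, 6.94 and 6.98) were also above that level. NF1 (6.77 ± 0.10) and PDGFRA were among the genes detected below it.

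The 4 driver genes at background were CDKN2B (2.03 ± 0.64), MTAP (2.00 ± 0.18 on the brightest of 3 probes), CDKN2C (2.32 ± 0.37) and MGMT (2.30 ± 0.68). MGMT encodes a DNA repair enzyme that removes alkyl groups. CDKN2B and MTAP are the direct neighbours of CDKN2A on chromosome 9, a segment known to be lost in U87 and in many glioblastomas. CDKN2A itself had probes that disagreed. One was detected, with 9.17, 9.19 and 9.13, and the other was at background, with 2.52, 2.88 and 2.58. Which of these reflects the transcript was not tested.

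The protein-coding genes with a named probe on either side of CDKN2A were then read in the order of the reference gene table, 8 on each side. Of these 16, 5 were detected and 11 were at background. The 8 on the side of MTAP were MTAP, IFNE, IFNA8, IFNA2, IFNA6, KLHL9, IFNA14 and IFNA16, and among them KLHL9 alone was detected, at 4.82 ± 0.40 and thus below 6.87. On the other side CDKN2B, DMRTA1 and ELAVL2 were at background. TUSC1, the next gene, had log2 values of 10.19, 10.15 and 10.13, and it was followed by CAAP1 (6.84 ± 0.09), PLAA (8.32 ± 0.08) and IFT74 (6.82 ± 0.07 on 1 of 2 probes), all detected, and by LRRC19, which was at background. CAAP1 and IFT74 lay just below the olfactory receptor level, as KLHL9 lay below it. Apart from 1 probe of CDKN2A, every gene read from IFNA6 to ELAVL2 was thus at background, and genes between them without a named probe were not seen. Interferon genes are known to be silent in most unstimulated cells, and copy number was not measured.

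**Figure D4:**
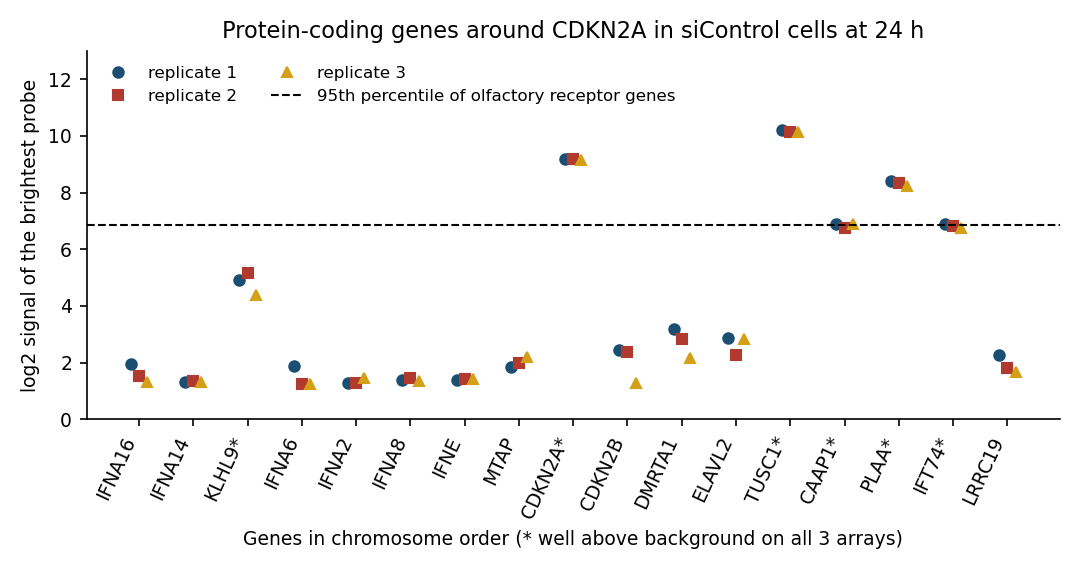
log2 signal of the brightest probe on each of the 3 siControl arrays for CDKN2A and the 8 protein-coding genes with a named probe on either side. Genes are in chromosome order and not to scale, with an asterisk for genes well above background on all 3 arrays. MTAP, CDKN2B, DMRTA1 and ELAVL2 lie between 1.29 and 3.19 on every array, while the brighter CDKN2A probe lies near 9.16 and TUSC1 near 10.15.

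Since the series concerns an atypical small GTPase, the family of RND3 was described as a whole. RND3 had 1 probe, with log2 values of 11.88, 11.91 and 11.90 (mean 11.90 ± 0.01, SD, n = 3), at the 88.8 percentile of all genes. Its SD was below the median SD of all detected genes. The other Rnd members were dim. RND2 had values of 4.69, 4.94 and 5.08, and RND1 of 2.83, 4.44 and 4.34, so both were called detected but lay below the olfactory receptor level, and replicate 1 was the low array for RND1.

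In all, 16 of 20 genes of this GTPase family were detected, against 74.9% of all genes, and 12 were above the olfactory receptor level, against 55.3%. The classical members RHOA (13.10 ± 0.06), which drives stress fibres, and RHOC (13.77 ± 0.04) were in the upper range, and RHOB, an endosomal and stress-induced relative, had a signal of 8.67 ± 0.04. The Rac and Cdc42 group, which drives lamellipodia and filopodia, was represented by RAC1 (11.66 ± 0.07), RAC3 (9.93 ± 0.12), RHOG (10.40 ± 0.06), CDC42 (12.92 ± 0.05) and RHOQ (13.28 ± 0.06). RAC2, known mainly from blood cells, was detected on both of its probes, with 15.01, 14.97 and 15.07 on the brighter and 12.40, 12.17 and 12.22 on the other. RHOBTB2 (9.61 ± 0.04) and RHOBTB1 (8.65 ± 0.09) were detected, as were RHOF (5.08 ± 0.12) and RHOV (4.35 ± 0.41) at low signal. RHOH (2.46 ± 0.32), of haematopoietic cells, RHOD (1.89 ± 0.26), RHOU (1.71 ± 0.19) and RHOJ (1.32 ± 0.07), known from endothelium, were at background.

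**Figure D5:**
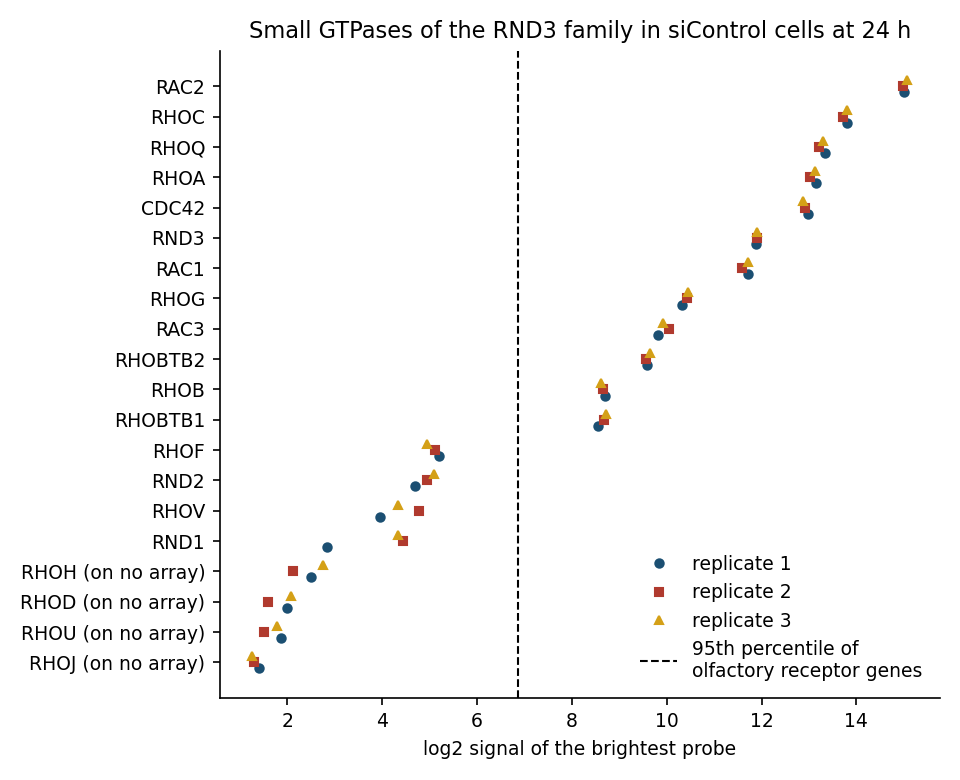
log2 signal of the brightest probe of the 20 small GTPases of the RND3 family on each of the 3 siControl arrays, ordered by mean, with the olfactory receptor level (6.87) dashed. The 3 points of RND3 fall together near 11.90, 12 genes lie to the right of the dashed line, and the 4 genes at background lie at the lower left, with RHOJ lowest at 1.32.

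Their regulators passed the olfactory receptor level in shares near the 55.3% of all genes. Of 26 RhoGEF genes with ARHGEF symbols 22 were detected and 15 (57.7%) were above that level, with ARHGEF18 at 11.92 ± 0.07 and ARHGEF40 at 11.63 ± 0.03 at the top and ARHGEF4 at 1.48 ± 0.04 at the bottom. Of 35 RhoGAP genes with ARHGAP symbols 30 were detected and 20 (57.1%) were above that level. ARHGAP33 (14.78 ± 0.08), ARHGAP4 (14.66 ± 0.04) and ARHGAP1 (13.94 ± 0.06) were the brightest, and ARHGAP36, ARHGAP8, ARHGAP15 and ARHGAP25 were at background.

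The list of 30 matrix and protease genes was chosen with earlier results of these data known, so its shares are a description only. All 30 were detected (100% against 74.9% of all genes), and 28 lay above the olfactory receptor level (93.3% against 55.3%). The median percentile of the list was 81.2. PLAU, the urokinase plasminogen activator, had log2 values of 16.42, 16.27 and 16.46, and its receptor PLAUR of 12.48, 12.32 and 12.51. The collagen VI chain COL6A1 (15.36 ± 0.05), the protease inhibitor TIMP2 (14.49 ± 0.05) and SPARC (13.91 ± 0.05) were bright. MMP2, a gelatinase, had values of 11.82, 11.75 and 11.96. MMP9 (6.41 ± 0.07) and COL4A1 (5.74, 5.57 and 5.48) were the 2 below that level. Over the whole families, 32 of 44 collagen chains (72.7%) and 15 of 23 matrix metalloproteinases (65.2%) were detected, against 74.9% of all genes. Above the olfactory receptor level lay 17 collagen chains (38.6%) and 9 matrix metalloproteinases (39.1%), against 55.3% of all genes. The basement membrane chain COL4A3, COL28A1, COL6A5 and the metalloproteinases MMP8, MMP20, MMP27 and MMP13 were among those at background. Of 12 laminin chains 9 passed, led by LAMB1 (12.28 ± 0.03), and LAMB4 was the 1 at background. Among genes with integrin symbols, ITGA3 (13.64 ± 0.02), ITGA7 and ITGA5 (12.67 ± 0.03) were bright and the leukocyte integrins ITGB2 (1.38 ± 0.03) and ITGAL (1.37, 1.73 and 1.39) were at background. The cadherin genes were led by CDH22 (12.32 ± 0.10), CDH2 (11.41 ± 0.05), which encodes N-cadherin, and CDH13 (10.96 ± 0.08), with CDH1 at background.

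Ligands and receptors were read as pairs. Both partners were detected in 24 of 30 pairs, and in 11 pairs both lay above the olfactory receptor level. Of all single genes 74.9% were detected and 55.3% lay above that level. A share of pairs is not the same measure as a share of single genes. These counts are therefore a description of the pairs, and whether they differ from other genes was not tested. These 11 comprised HGF (8.55 ± 0.03) with MET, GAS6 (9.56 ± 0.14) with AXL (13.71 ± 0.03), SPP1 (13.31 ± 0.04) with CD44, CSF1 (9.17 ± 0.24) with CSF1R, and FGF2 (9.08 ± 0.03) with FGFR1 (10.90 ± 0.04). TGFA (10.16 ± 0.06) and HBEGF (9.31 ± 0.08) with EGFR, TGFB1 with TGFBR2, LIF with LIFR, IL1B (11.01 ± 0.14) with IL1R1, and EFNB2 with EPHB4 completed them. In 5 pairs the ligand was detected and the receptor was at background. These were VEGFA (12.63 ± 0.11) with FLT1 (1.49 ± 0.03), WNT5A (12.73 ± 0.04) with ROR2, CCL2 (11.13 ± 0.06) with CCR2, CXCL12 with CXCR4 (1.30 ± 0.01), and CXCL8 (7.44, 7.55 and 7.52) with CXCR2. In the pair of PDGFB (3.59 ± 0.53) and PDGFRB (9.22 ± 0.08) the receptor alone was detected.

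Immune genes were divided in the same way. Of all genes 74.9% were detected, 55.3% lay above the olfactory receptor level and 19.9% were at background. Of 41 chemokines 12 (29.3%) lay above the olfactory receptor level, among them CCL24 (12.25 ± 0.06), CCL3 (11.39 ± 0.04), CCL2 and CXCL2 (10.62 ± 0.04), and 17 were at background, including CCL5 (2.08 ± 0.16) and CXCL9. Of 23 chemokine receptors 11 were at background (47.8%), CXCR4 among them, and CCR10 (9.07 ± 0.07) and CCR1 (8.74 ± 0.05) were the brightest. TNF receptors were detected for 23 of 28 genes (82.1%), and 15 (53.6%) lay above the olfactory receptor level, near the shares of all genes. They were led by TNFRSF12A (14.30 ± 0.06), the TWEAK receptor, and TNFRSF10B (12.70 ± 0.07), a TRAIL receptor. Of 26 genes with HLA symbols 25 were detected (96.2%) and 20 lay above the olfactory receptor level (76.9%). The class I genes HLA-C (15.32 ± 0.06) and HLA-B (15.09 ± 0.13) were bright, and HLA-DRB6, a pseudogene, was the 1 at background. HLA genes are close paralogs and polymorphic, so their separate values are uncertain.

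Toll-like receptors, sensors of microbial products, were detected for 6 of 10 genes, 4 of them just above the olfactory receptor level, with TLR4 highest at 7.44 ± 0.07. Of 18 TNF ligands 4 passed that level (22.2%), led by CD70 (11.88 ± 0.11), and CD40LG, TNFSF15 and TNFSF18 were at background.

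Calcium-binding families held both bright members and members at background. The annexins ANXA2, ANXA1 (16.04 ± 0.06) and ANXA5 (15.07 ± 0.02) were in the upper range, and ANXA3 (1.35 ± 0.01) was at background. Of 19 S100 genes 9 lay above the olfactory receptor level (47.4%, against 55.3% of all genes). Among them were S100A6, S100A10 (15.50 ± 0.03) and S100A16 (14.77 ± 0.08). S100A9, a protein of myeloid cells, was at background, and S100B, a glial marker, passed the flag on some arrays only at a mean of 2.20 ± 0.94. Claudins, the proteins of tight junctions, passed the olfactory receptor level for 3 of 23 genes, CLDN19 (10.14 ± 0.07 on 1 of 2 probes), CLDN12 (9.75 ± 0.07) and CLDN4.

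Growth factor families showed a few bright members each. Of 19 Wnt ligands 6 lay above the olfactory receptor level (31.6%), led by WNT5A and WNT5B (9.65 ± 0.05), and WNT16, WNT2 and WNT4 were at background. Of their Frizzled receptors 6 of 10 lay above that level, with FZD2 highest at 9.79 ± 0.11, and by the flag alone 10 of 19 ligands and 9 of 10 receptors were detected. The difference was not tested. Of 22 genes with FGF symbols 3 passed the olfactory receptor level (13.6%), FGF13 (9.47 ± 0.04), FGF2 and FGF1 (7.12 ± 0.13 on 1 of 2 probes). Of 22 ephrins and Eph receptors 7 passed (31.8%), with EPHB2 (10.71 ± 0.08) highest. Serpins, a family of protease inhibitors, passed for 9 of 34 genes (26.5%). The brightest were the collagen chaperone SERPINH1 (12.04 ± 0.08), SERPINB6 (11.98 ± 0.06) and SERPINE2 (10.36 ± 0.08).

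Large families of mixed function lay nearer to all genes, of which 55.3% were above the olfactory receptor level. Of 342 solute carriers 166 (48.5%) were above the olfactory receptor level and 79 were at background, and of 487 zinc finger genes with ZNF symbols 206 (42.3%) were above it and 87 were at background. Cytochrome P450 genes, most of them hepatic, passed for 10 of 54 (18.5%). CYP2W1 was far above the rest of that family, with 17.18 ± 0.03, followed by CYP1B1 (12.37 ± 0.01) and the sterol demethylase CYP51A1 (11.47 ± 0.07). Of 8 globins 3 passed, with HBZ highest (8.33 ± 0.08 on 1 of 2 probes).

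Developmental transcription factors were detected in shares between 42.1% (SOX) and 77.8% (HOXD), against 74.9% of all genes. Above the olfactory receptor level their shares lay between 10.5% (SOX) and 45.5% (HOXA), against 55.3% of all genes. In the HOXA cluster 7 of 11 genes were detected and 5 lay above the olfactory receptor level, led by HOXA10 (12.89 ± 0.21, detected on 1 of 2 probes) and HOXA9 (11.01 ± 0.19, likewise), with HOXA13 at background. In the HOXB cluster 5 of 10 were detected and 3 were above that level, with HOXB2 at 12.09 ± 0.15. In the HOXC cluster 5 of 9 were detected and 2 were above it, with HOXC6 at 8.54 ± 0.08, and in the HOXD cluster 7 of 9 were detected and 2 were above it, with HOXD8 at 8.19 ± 0.09. SOX factors were mostly dim. Of 19, SOX13 (8.88 ± 0.18) and SOX3 (7.04 ± 0.31) were above the olfactory receptor level, SOX9 had a signal of 6.24 ± 0.10, and 8 were at background. Of 43 FOX factors 28 were detected and 16 (37.2%) passed that level, among them FOXP4 (16.20 ± 0.12), FOXI2 (14.08 ± 0.02) and FOXP1.

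Cancer-testis antigens, genes of the germ line that tumours often re-express, were detected for 9 of the 13 that could be named (69.2%, against 74.9% of all genes), and 4 (30.8%, against 55.3%) were above the olfactory receptor level. MAGEA6 (9.14 ± 0.07), MAGEA1 (8.43 ± 0.05), SSX2 (8.22 ± 0.05 on 1 of 2 probes) and MAGEA12 were these 4, and PAGE1 and MAGEA10 were at background. Members of the MAGEA group are close paralogs whose probes may share signal. Of 6 erythroid markers 2 passed that level, the haemoglobin gene HBG1 (7.23 ± 0.10 on 1 of 2 probes) among them, and HBB was at background.

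The genes whose signal differed most between the 3 arrays were then listed. In 7 of the 10 with the largest SD the array of replicate 2 was far above the other 2. TBX10 had values of 5.09, 14.64 and 5.23, OR10P1 of 5.27, 14.14 and 4.98, TMEM33 of 7.46, 15.26 and 7.41, and MAP3K5 had 6.19 on replicate 1 against 13.47 on replicate 2, while the second MAP3K5 probe had 8.10, 8.13 and 8.26. UGT2B4, ICAM2 and GLMN had 2 spots each, and in each case 1 spot was bright on that array and the other was not. For UGT2B4 the spots read 15.46 and 3.77. The 7 bright spots all lay between rows 104 and 115 and columns 26 and 32 of the array. Of 79 spots in that block, the software had marked 23 (29.1%) as outliers on replicate 2, against 0.491% elsewhere. Of the 56 left, 38 (67.9%) exceeded the mean of the other arrays by more than 1 on the log2 scale, against 2.17% of spots elsewhere. The block touched 22 named genes, none of them in the marker and pathway lists. Of the families above it touched OR10P1, which was counted among the 18 olfactory receptors over 6.87, OR4D9 and the solute carrier gene SLC4A9. The other 3 genes of the 10 were TM4SF5 (3.79, 3.97 and 6.98), CD300LG (7.47, 4.74 and 4.25) and PPP1R14D (6.55, 3.92 and 6.91), in which replicate 3, replicate 1 and replicate 2 stood apart. In total 19 genes had an SD above 1.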

How the data were processed

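RNA of U87 cells was measured on 1-colour Agilent arrays, 1 per sample. Per the file headers, the deposited scanner files were made with Feature Extraction 10.7.3.1, which gave background-subtracted processed intensities and flags per spot. A table of log2 values, quantile normalised by the authors, came with them and served as an alternative. From the scanner files, 4259 of 62976 spots were left out as controls, outlier spots were dropped, log2 processed intensities were quantile normalised over all 8 arrays, and spots of a probe were averaged. Of 42405 probes 25422 (60.0%) were named through RefSeq accessions (GRCh38.p14), without versions. The array annotation is older (hg19), so only promoter coordinates of the RefSeq table are given. Python 3.11.15, numpy 2.4.6, pandas 2.3.3, scipy 1.17.1, matplotlib 3.10.9 and, for the normexp alternative, R 4.3.3 with limma 3.58.1 were used. The scripts were tested on simulated data.

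The samples were grouped by title, no groups were compared and no test was run. Precision is limited by the number of arrays. Genes named were the members of fixed lists, the highest and lowest members of families, the 20 brightest genes and the 10 with the largest SD. The lists and families were chosen with earlier results of these data known, and a few further members were named after their values were seen. Listed genes AIF1, HBA1, HBG2, MAGEA3, GAGE1, PAGE5, XAGE1A, SSX4, CTAG1B and BAGE had no named probe. Base composition of promoters was not compared, because 77.9% of named genes had a promoter in the table and 80% was required. Some members of the lists are not reported here by name.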

Additional observations from a re-analysis of the deposited data

How the results depend on the processing

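The number of detected genes (14590) moved by less than 1.5 times under every setting tried, being 14365 when all spots of a probe had to pass, 16478 with the weaker flag for signal above background, 14588 by the brightest probe alone, 15005 with 2 of 3 arrays required and 10771 with the olfactory receptor level. With the weaker flag the number of genes at background was 1288 in place of 3872, and the detected members of 8 of 70 lists and families moved by more than 1.5 times, all upward: neuron markers (11 in place of 6), chemokine receptors (16 in place of 9), interferon alpha genes, olfactory, taste and serotonin receptors, potassium channels and cytochrome P450 genes. Among lists that moved by no more than that, astrocyte markers rose from 8 to 12 of 12 and intermediate filament genes from 14 to 17 of 17. Driver genes rose from 18 to 21 of 22, and mesenchymal markers stayed at 20 of 21. With the olfactory receptor level, which was chosen after the values were seen, 44 of the 70 moved by that much, all downward, and members of the lists numbered 5 of 8 for astrocyte, 3 of 6 for neuron, 4 of 8 for oligodendrocyte, 2 of 7 for microglia and leukocyte, 2 of 7 for endothelial, 1 of 7 for epithelial, 2 of 5 for erythroid, 2 of 7 for proneural, 5 of 8 for classical, 9 of 14 for intermediate filament and 4 of 9 for cancer-testis genes. Without scaling between arrays the median SD was 0.132 in place of 0.0763. Leaving out 1 array gave 14656 to 14810 detected genes, 3982 to 4192 genes at background and a median SD of 0.0582 to 0.0686. Averaging a gene's probes in place of taking the brightest moved ADAMTS7 from percentile 99.9 to 67.7 and the median of the classical markers from 54.1 to 41.8, and leaving out replicate 2 moved TMEM33 from 73.8 to 49.2. No paired analysis was possible because no groups were compared. An alternative by gene symbols of the scanner files was not run, since no symbol column was used here. The cause of these shifts was not tested.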
